A study of Mus musculus with 24 samples.

Results

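Resident macrophages with high surface MHC class II were compared between colon tumours and healthy colon lamina propria (LP), the connective tissue beneath the gut epithelium, across all genes of the deposited expression table other than cell cycle genes and glycolytic enzymes. The members were the 6 libraries that the labels give as macrophages F4/80 high MHCII high (MHCIIhi here), 3 from tumours and 3 from LP, of 24 libraries in the series. The other libraries hold macrophages F4/80 high MHCII low (MHCIIlow), monocytes and neutrophils of both tissues, with 3 libraries of each. LP libraries carried the donor numbers III, IV and V and came from mice labelled C57/BL, the common inbred laboratory strain. Tumour libraries carried the donor numbers I, V and VII and came from mice labelled APC/Min, which carry a truncating allele of the tumour suppressor gene Apc in every cell and form intestinal adenomas. Per the methods, cells were pooled from several animals per library, the mice were young adults of both sexes, and dextran sodium sulphate, a polymer that inflames the colon, was given in the drinking water weeks before analysis so that the adenomas formed in the colon. The methods describe such a course for C57BL/6J controls too, at another concentration, while the labels call the LP healthy, so the treatment of the LP donors is not settled here. LP tissue was stripped of epithelium with EDTA and digested longer with collagenase than tumour tissue, which received no EDTA step and was digested with DNase as well. Apc genotype, tissue and dissociation thus differed together between the groups and cannot be told apart.

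Macrophages of the gut wall engulf bacteria and dying cells, present peptides on MHC class II to T cells, and tolerate the nearby flora without strong inflammation. In healthy gut, those with high MHC class II are fed largely by blood monocytes that mature in the tissue, and they sense the chemokine fractalkine through Cx3cr1. In tumours, macrophages are known to digest matrix, to feed vessels and to alter T cell responses. Cells of both groups were sorted for CD45, CD11b, F4/80 and MHC class II, after dendritic cells high for CD11c and MHC class II had been gated out.

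The levels are log2 RPKM, reads per kilobase of transcript and M reads (M, 1000000 reads) on a log2 scale as deposited, given throughout in the order LP III, IV and V and then tumour I, V and VII. Differences are tumour minus LP of the group means (n = 3 and 3 libraries), with the standard error (SE) and the Benjamini-Hochberg adjusted p of limma, and a gene rose or fell where that p was under 0.05. Depth was 27.7 to 41.7 M assigned reads in LP libraries and 21.5 to 35.9 M in tumour libraries. Spearman's rho across genes was 0.964 to 0.967 between LP libraries, 0.938 to 0.962 between tumour libraries and 0.864 to 0.906 between tissues. Tumour VII stood furthest from its group, at 0.938 and 0.950 to the other tumour libraries, and it had the fewest genes above 3 reads, 13541 against 14177 to 14853 in the other 5. Results that turn on it are given with and without it.

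Of the genes of the sorted proteins, Adgre1 and H2-Ab1 did not pass the test and Ptprc did. Adgre1, which encodes F4/80, lay at 8.72, 8.80 and 8.84 in LP and at 8.43, 8.62 and 8.88 in tumour, a difference of -0.14 (SE 0.19, adjusted p = 0.676 by limma). H2-Ab1, a chain of MHC class II, lay at 13.11, 13.24 and 13.36 in LP and 13.22, 12.58 and 11.95 in tumour, a difference of -0.66 (SE 0.60, adjusted p = 0.517). The groups overlapped for both genes, with tumour VII lowest for H2-Ab1. Ptprc, which encodes CD45, lay at 5.6, 5.54 and 5.59 in LP and at 5.83, 6.15 and 6.22 in tumour, higher in every tumour library (0.49, SE 0.13, adjusted p = 0.0106, or 0.0591 without tumour VII). The neutrophil gene Ly6g had 0 reads in all 6 libraries. Over 20 macrophage identity markers the summed RPKM was 19580 to 23260 in LP and 20620 to 29890 in tumour.

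Markers of other cell types were low beside those sums, and some lists held falls and others rises in tumour. The sums are over all markers in the table, those too low to be tested included. Of 15 fibroblast and stromal markers tested, 9 fell and 0 rose, and the summed RPKM of all 18 was 126 to 138 in LP and 37.7 to 80.6 in tumour. Most of that sum was Pdpn, podoplanin, which activated macrophages can also make, and without it the sums were 15.6 to 33.2 in LP and 5.90 to 7.45 in tumour. Of 18 epithelial markers tested 1 rose, with sums over 24 of 9.59 to 26.0 in LP and of 96.0, 43.1 and 10.8 in tumour I, V and VII, so that tumour VII lay within the LP range. Sums of 16 B and plasma cell markers were 230 to 325 in LP and 90.3 to 153 in tumour, and 2 of the 15 tested fell, 1 of them called with LP IV, LP V, tumour I or tumour VII left out. The 18 T and NK cell markers summed to 149 to 157 in LP and 18.7 to 27.6 in tumour, most of it Il7r, the interleukin-7 receptor, which was the 1 called of 11 tested and fell by 3.18 (adjusted p = 5.46e-07 by limma). Without Il7r they summed to 8.35 to 12 in LP and to 3.32 to 7.43 in tumour. Cd3e, the defining T cell marker, picked after its values were seen, had 0 to 8 reads in every library. Some other T cell markers of the list had more. Dendritic cell markers summed to 106 to 133 in LP and to 39.0 to 59.2 in tumour (13 tested, 3 lower, 1 without LP IV, LP V or tumour VII), and endothelial ones to 47.6 to 50.1 and 19.3 to 26.3 (5 tested, 2 lower). Eng was among the endothelial falls, while Pecam1, which made up most of the tumour sums, stood at -0.02 (adjusted p = 1). Neutrophil markers summed to 95.5 to 98.3 and 185 to 272, and to 79.3 to 80.1 and 83.2 to 102 without Mmp9, which macrophages make too. Of 20 neutrophil markers tested 3 rose and 1 fell. The rises were Mmp9, S100a9, whose call was lost without LP V or tumour I (adjusted p = 0.0982 and 0.0629), and G0s2, whose call was lost without LP III, tumour I or tumour VII (adjusted p = 0.178, 0.136 and 0.0636). Of 6 erythroid markers tested 3 rose, with each single library left out as well, all of them haemoglobin genes with 0 to 2 reads in LP and 4 to 54 in tumour libraries. Eosinophil, mast cell, erythroid, glial and muscle markers each summed to at most 15.6 RPKM in every library.

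Of 12878 genes tested, 1031 (8.01%) rose and 1480 (11.5%) fell in tumour MHCIIhi macrophages, and the median difference over all of them was 0. The 3 tumour libraries all lay above the 3 LP libraries in 20.9% of the genes and all below in 22.1%. Those shares are the background for every count that follows. Each bulk value averages over the sorted cells, so a smaller share of cells making a transcript and less transcript per cell cannot be told apart. The plot of all genes tested shows that differences past 5 on the log2 scale lay mostly among genes of low level.

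**Figure D1:**
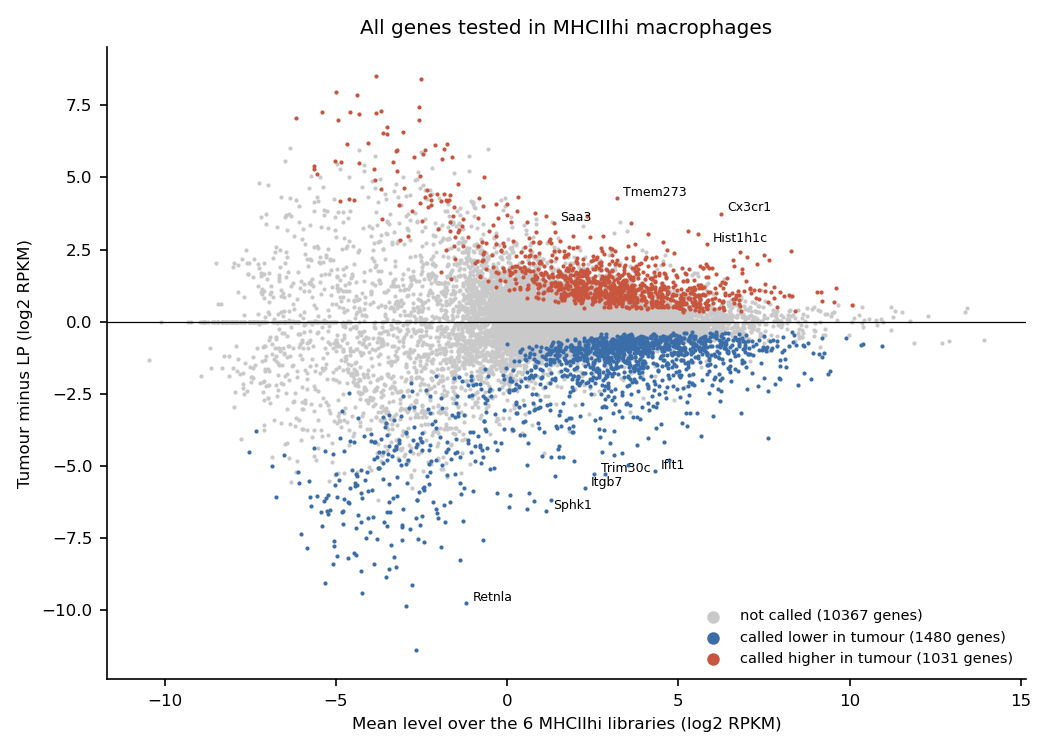
Tumour minus LP difference (log2 RPKM, vertical) against the mean level over the 6 MHCIIhi libraries (log2 RPKM, horizontal), 1 point per gene tested, with 1031 genes called higher in red, 1480 called lower in blue and the rest in grey. Some of the named genes are labelled. The falls reach further from 0 than the rises among genes above a mean level of 0, with Sphk1, Itgb7 and Ifit1 at -6.55, -5.78 and -5.19 and Tmem273 and Cx3cr1 at 4.28 and 3.75.

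Tmem273, a small membrane protein, lay at 0.88, 1.77 and 0.56 in LP and at 5.26, 5.52 and 5.26 in tumour, 19.4-fold higher (difference 4.28, SE 0.52, adjusted p = 6.08e-06 by limma). The fractalkine receptor Cx3cr1 lay at 4.56, 3.95 and 4.57 in LP and 7.80, 8.09 and 8.42 in tumour, 13.4-fold higher (3.75, SE 0.62, adjusted p = 0.000202). Tmem119, best known as a marker of microglia, the macrophages of the brain, lay at 3.63, 3.77 and 3.69 in LP and at 6.41, 6.97 and 7.15 in tumour (3.15, SE 0.49, adjusted p = 9.82e-05). For all of them every tumour library lay at least 2 log2 units above every LP library. Fpr1, a receptor for formylated bacterial and mitochondrial peptides, was 10.6-fold higher, at 1.76, 1.41 and 2.56 against 5.14, 5.18 and 5.62 (3.40, SE 0.50, adjusted p = 5.48e-05). Saa3, an acute-phase apolipoprotein that draws in phagocytes, was low in LP at -0.25, -0.06 and -0.70 and varied in tumour, at 2.43, 2.36 and 4.43 (3.41, SE 0.77, adjusted p = 0.00338). Its highest value came from tumour VII.

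Other rises named by size were Ppfia4, a scaffold protein of the liprin family (3.65), Ntpcr, a nucleoside triphosphatase (3.03), Hist1h1c, a linker histone (2.69), Rps6ka1, a kinase downstream of ERK (2.67), Apold1 (2.63), the Golgi protein Golm1 (2.59) and Scd2, which desaturates fatty acids (2.55). Mmp9, the gelatinase that cuts type IV collagen, lay at 4.19, 4.02 and 3.99 in LP and at 7.07, 7.54 and 6.66 in tumour (3.03, SE 0.52, adjusted p = 0.000314). Mfge8, which bridges dying cells to phagocytes, lay at 3.53, 3.03 and 2.98 in LP and 5.81, 6.49 and 5.46 in tumour (2.74, SE 0.51, adjusted p = 0.000671). Both genes were separated between tissues in every library, which the rule for naming genes by size required. Bhlhe41, a repressor tied to the clock, also rose (2.96, adjusted p = 0.0207), and its p lay between 0.0565 and 0.0665 with LP III, LP IV, tumour I or tumour VII left out.

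The leading falls were larger than the rises. Retnla, a secreted resistin-like protein induced by interleukins 4 and 13, lay at 3.55, 3.54 and 3.94 in LP and had 0 reads in all 3 tumour libraries, which made it at least 82.5-fold lower against a floor of 3 reads per library. Sphk1, the kinase that makes sphingosine-1-phosphate, lay at 4.42, 4.31 and 4.53 in LP and at 0.08, -0.52 and -5.94 in tumour (-6.55, SE 0.90, adjusted p = 2.67e-05 by limma). The last value is tumour VII, far below the other tumour libraries, which themselves lay over 4 log2 units below LP. Il1r1, the receptor for interleukin-1, lay at 3.88, 3.93 and 3.93 in LP and at -2.01, -1.03 and -3.91 in tumour, 75.0-fold lower (-6.23, SE 0.61, adjusted p = 5.46e-07). Itgb7, the beta-7 integrin chain by which leukocytes home to the gut, lay at 5.10, 5.34 and 5.05 in LP and -1.82, -0.06 and 0.03 in tumour, 54.9-fold lower (-5.78, SE 0.57, adjusted p = 5.46e-07). Trim30c, of a family of antiviral TRIM proteins, lay at 5.23, 5.09 and 5.24 against -0.11, 0.10 and -0.31, with little spread in either group (-5.29, SE 0.35, adjusted p = 7.81e-09). No tumour library came within 4 log2 units of LP for these genes.

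Further falls of this size were in Zbtb32, a repressor of transcription (-5.93), Gja1, the gap junction protein connexin 43 (-5.33), Flrt3, a membrane protein with leucine-rich repeats (-4.95), Sgms2, a sphingomyelin synthase (-4.70), and Slfn1, a Schlafen protein (-4.69). In Cgref1 (-6.49), Oaf (-6.43) and Cnn3, a calponin that binds actin (-6.17), tumour VII lay between -8.07 and -7.23 and the other tumour libraries between -1.42 and 1.43, so the size of those differences rested on tumour VII. Without that library the differences were -4.21 for Cgref1 (adjusted p = 0.0922 by limma) and -3.97 for Oaf (adjusted p = 0.191). For Cnn3 the difference without it was -3.17, and the call was lost in 1 of 19 alternatives (adjusted p = 0.151 by limma). Oaf also passed the threshold only with all of the LP libraries in the fit (adjusted p of 0.0589 to 0.0815 with 1 of them left out).

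**Figure D2:**
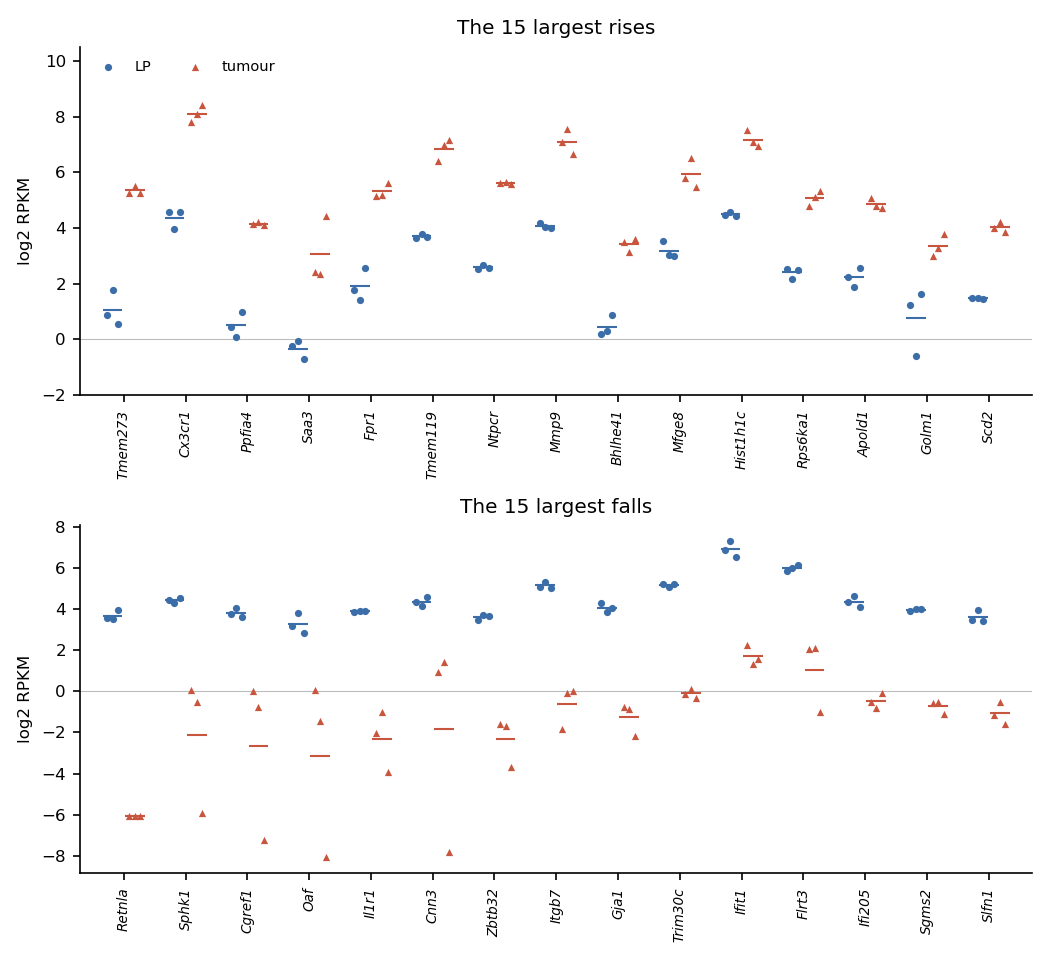
Level of leading genes (log2 RPKM) in the 3 LP and 3 tumour MHCIIhi libraries, 1 point per library, with horizontal bars at the group means. Cx3cr1 separates at 3.95 to 4.57 in LP from 7.80 to 8.42 in tumour, and for Sphk1 tumour VII lies far below tumour I and V.

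Interferon-stimulated genes, which interferons switch on to block viruses, fell as a group. Of 53 tested, 34 (64.2%) fell and 1 rose, where 11.5% of all genes fell and 8.01% rose, and their median difference was -1.58 against 0 over all genes. Between 30 and 39 of them fell, and between 1 and 3 rose, under the 19 alternative analyses. The 5 with the greatest falls are effectors of antiviral defence. Ifit1, which binds foreign RNA, lay at 6.89, 7.32 and 6.53 in LP and 2.27, 1.31 and 1.60 in tumour, 36.4-fold lower (-5.19, SE 0.37, adjusted p = 1.35e-08 by limma). Cmpk2, a mitochondrial nucleotide kinase, lay at 5.18, 5.48 and 4.41 against 0.76, 0.45 and 0.35 (-4.50, SE 0.41, adjusted p = 2.39e-07). Samd9l, which arrests translation, lay at 3.59, 3.87 and 3.52 against -0.39, 0.40 and -1.90 (-4.29, SE 0.46, adjusted p = 1.47e-06). Their LP and tumour libraries stayed over 3 log2 units apart. Ifi205, a DNA-binding member of the interferon-inducible p200 family, fell by 4.83, and Ifit3b, a relative of Ifit1, fell by 4.41. Ifi205 and Ifit3b have near-identical neighbours in the mouse genome, and reads shared between copies could have been split or lost in counting. Gbp7, a guanylate-binding GTPase, was the exception, at 3.85, 4.0 and 3.74 in LP and 5.52, 5.20 and 5.52 in tumour (1.55, SE 0.34, adjusted p = 0.00301).

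**Figure D3:**
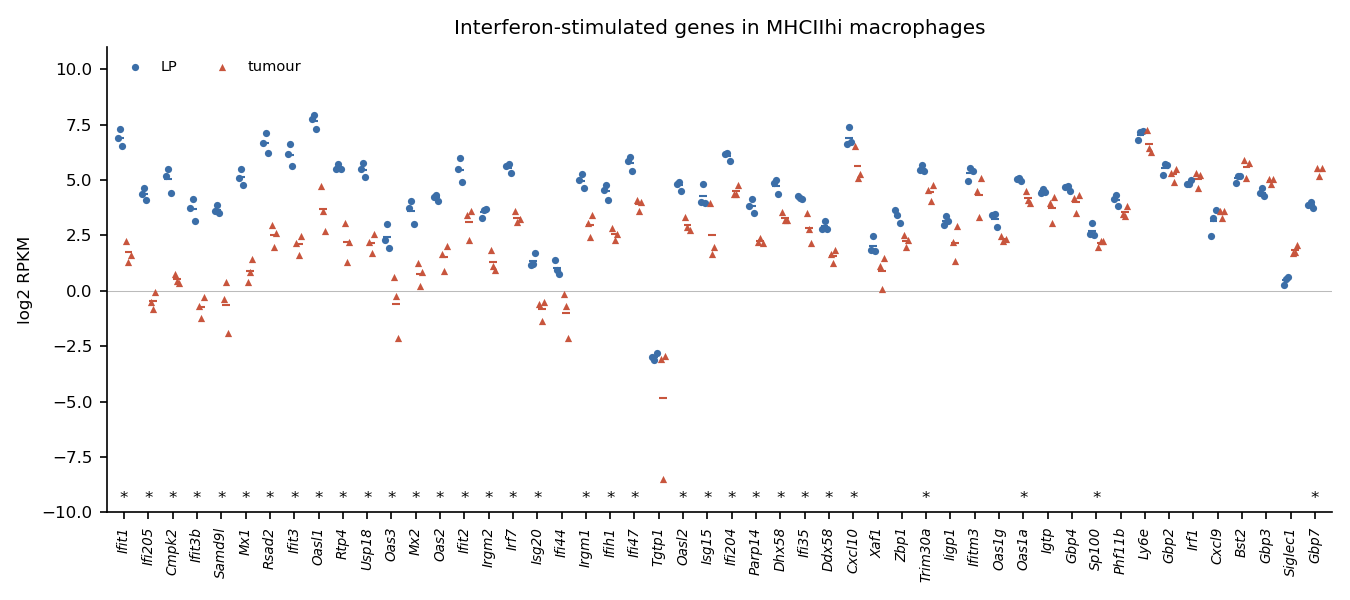
Level of interferon-stimulated genes (log2 RPKM), 3 of the 53 left out, in the 3 LP and 3 tumour MHCIIhi libraries, 1 point per library, with horizontal bars at the group means and asterisks at called genes. Ifit1 falls from 6.53 to 7.32 in LP to 1.31 to 2.27 in tumour, while Gbp7 lies higher in all 3 tumour libraries.

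The interferon-stimulated response element is the DNA motif through which type I interferon signalling switches genes on. It was searched as GAAA, any 2 bases and GAAA again on both strands of the 250 bases before each RefSeq start site (GRCm38.p6), and the promoters of 3 genes that fell and of the 1 that rose are shown so that the motif can be seen on both sides of the comparison. Capitals mark the motif or its reverse complement, and each sequence runs 5′ to 3′ along its gene's strand. The regions are chr19:34640639-34640888 (plus strand) for Ifit1, chr1:174031756-174032005 (minus) for Ifi205, chr19:34607707-34607956 (plus) for Ifit3b and chr3:142530086-142530335 (plus) for Gbp7.
Ifit1: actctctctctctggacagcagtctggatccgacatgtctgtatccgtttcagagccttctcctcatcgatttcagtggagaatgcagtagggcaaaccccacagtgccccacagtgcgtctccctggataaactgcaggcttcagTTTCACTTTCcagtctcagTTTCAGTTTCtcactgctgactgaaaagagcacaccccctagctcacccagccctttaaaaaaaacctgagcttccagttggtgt
Ifi205: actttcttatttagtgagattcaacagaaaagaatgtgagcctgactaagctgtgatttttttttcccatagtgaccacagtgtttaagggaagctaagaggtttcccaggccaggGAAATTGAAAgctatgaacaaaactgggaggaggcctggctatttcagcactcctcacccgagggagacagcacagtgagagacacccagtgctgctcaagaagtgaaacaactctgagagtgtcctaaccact
Ifit3b: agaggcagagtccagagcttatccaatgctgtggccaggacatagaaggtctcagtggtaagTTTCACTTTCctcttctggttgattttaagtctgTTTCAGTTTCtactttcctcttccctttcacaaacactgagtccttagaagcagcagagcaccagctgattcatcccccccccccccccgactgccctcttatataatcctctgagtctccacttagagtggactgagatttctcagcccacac
Gbp7: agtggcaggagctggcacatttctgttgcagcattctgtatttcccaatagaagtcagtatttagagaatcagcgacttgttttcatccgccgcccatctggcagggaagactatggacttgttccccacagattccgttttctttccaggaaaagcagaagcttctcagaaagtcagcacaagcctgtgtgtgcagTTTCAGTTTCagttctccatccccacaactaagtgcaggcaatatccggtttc
Ifit1 and Ifit3b held 2 copies each and Ifi205 and Gbp7 1 copy. Of the 26 fallen list members with a promoter in the table, 13 (50%) held the motif, and of the 12 list members that did not pass the test and have a promoter, 7 (58.3%) did. Gbp7 was the 1 that rose. The motif stood in 2.98% of all 32851 promoters. Counted by gene, over any promoter, it stood in 3.43% of genes tested, 3.73% of those that rose and 4.99% of those that fell. List members with and without a fall thus held the motif at like shares, and the match is a description of letters, not of bound sites.

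Pattern recognition receptors and inflammasome parts moved in both directions. Of 38 tested, 9 rose and 7 fell, with a median of 0.11. Tlr2, the receptor for bacterial lipoproteins, lay at 5.89, 5.79 and 6.18 in LP and at 7.51, 7.71 and 8.13 in tumour (1.83, SE 0.23, adjusted p = 9.10e-06 by limma). Tmem173, which encodes the DNA-sensing adaptor STING, rose by 1.67, Nlrc4, of the inflammasome that flagellin triggers, by 1.64 and Nlrp1b, an inflammasome sensor, by 2.57. Pycard, the inflammasome adaptor, rose by 1.31. Tlr5, the surface receptor for flagellin, lay at 3.60, 3.35 and 3.40 in LP and 1.97, 1.92 and 1.29 in tumour (-1.73, SE 0.29, adjusted p = 0.000235). Casp4, the caspase that senses intracellular lipopolysaccharide, lay at 6.16, 6.38 and 6.34 against 4.39, 3.83 and 3.72 (-2.31, SE 0.17, adjusted p = 1.75e-08), and Casp1, the inflammasome protease, fell by 0.88. So Tlr5 and Nlrc4 changed in opposite directions, and both inflammatory caspases named here fell while the adaptor Pycard rose.

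Of 26 proinflammatory cytokines tested, 6 rose and 4 fell, and of 20 regulatory cytokines, antagonists and feedback inhibitors 9 (45.0%) fell, 8 to 11 under every alternative, and 2 rose, with medians of 0.22 and -0.81. Il1a, the alarmin form of interleukin-1, lay at 6.36, 6.52 and 6.15 in LP and at 8.92, 8.50 and 8.56 in tumour (2.32, SE 0.28, adjusted p = 4.96e-06 by limma). Osm, oncostatin M, which acts on stromal cells, lay at 6.29, 6.28 and 6.33 against 8.63, 7.74 and 8.53 (2.01, SE 0.23, adjusted p = 3.17e-06). Tnfsf13b, which encodes the B cell factor BAFF, rose by 2.20 and Mif, a cytokine that retains macrophages, by 1.83. All tumour libraries lay above all LP libraries for these. Tnfsf14, the T cell costimulator LIGHT, lay at 4.63, 4.48 and 4.98 in LP and 0.40, 1.12 and 0.61 in tumour, 15.9-fold lower (-3.99, SE 0.38, adjusted p = 3.63e-07). Il15, which sustains NK and memory T cells, lay at 3.74, 3.50 and 3.67 against 1.30, 1.80 and 1.48 (-2.11, SE 0.20, adjusted p = 3.32e-07), and Il27 fell by 1.94. Il33, an alarmin, had 3.12, 3.35 and 2.67 in LP and 0 reads in tumour, at least 259-fold lower, and stromal cells are its usual source, whose markers fell too (9 of 15, above). What part they had in it was not tested.

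Among the restraints, Tnip3, an inhibitor of NF-kappaB signalling, lay at 6.80, 6.86 and 7.11 in LP and 3.74, 4.27 and 3.27 in tumour, 8.97-fold lower (-3.17, SE 0.32, adjusted p = 8.10e-07 by limma). Anxa1, annexin A1, which halts leukocyte entry, fell by 2.46, Bcl3, a nuclear IkappaB protein, by 2.07 and Socs1, which shuts off cytokine and interferon signalling, by 2.04. Lgals3, galectin-3, a lectin of activated macrophages, lay at 9.33, 9.72 and 9.74 in LP and at 7.92, 7.42 and 6.82 in tumour (-2.21, SE 0.25, adjusted p = 3.35e-06). All 5 genes were lower in every tumour library. The 2 regulators that rose lost the threshold on leaving out single libraries, with 0 left without LP III or tumour I and 1 without any other.

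Chemokines changed less as groups than single members did. Of 12 CC chemokines 1 rose and 1 fell (2 without tumour V), and of 15 CXC chemokines 1 rose and 4 fell, the falls dropping to 1 without tumour VII and 2 without LP IV or LP V. Ccl3, which attracts monocytes and T cells, lay at 5.91, 6.75 and 6.12 in LP and at 7.69, 7.24 and 8.08 in tumour (1.41, SE 0.30, adjusted p = 0.00219 by limma), whereas Ccl9 fell by 1.15. Cxcl14, a chemokine with antimicrobial action, rose from 0.69, 2.49 and 1.30 to 3.90, 4.01 and 3.34 (2.26, SE 0.44, adjusted p = 0.000961). Receptors for chemoattractants split 4 higher and 5 lower of 28 tested (median -0.60, or -0.45 with genes at the floor set to their bound). Beside Cx3cr1 and Fpr1, Ccrl2, an atypical receptor that binds chemerin, rose by 2.14 and Fpr2, a receptor for lipid and peptide mediators, by 0.96. C5ar1, the C5a receptor, fell from 9.14, 9.03 and 9.06 to 8.32, 8.24 and 8.17 (-0.83, SE 0.15, adjusted p = 0.000398), Ccr1, the receptor for Ccl3, fell by 0.69 and Ltb4r1, the leukotriene B4 receptor, by 3.83. The falls of the abundant receptors were small in size but no tumour library reached the LP range.

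Of 31 genes of resident gut macrophages tested, 6 (19.4%) rose, 2 fell and 23 did not pass the test, with a median of -0.19, so the list as a whole did not lie above the rest. Mertk, a receptor for dying cells, lay at 3.48, 3.57 and 3.22 in LP and at 5.98, 5.96 and 5.83 in tumour, 5.66-fold higher (2.50, SE 0.43, adjusted p = 0.000264 by limma). Stab1, a scavenger receptor, lay at 4.78, 4.67 and 4.51 against 6.48, 6.65 and 6.66 (1.94, SE 0.25, adjusted p = 1.46e-05). Tgfbr2, the TGF-beta receptor chain that gut macrophages need to mature, rose by 1.17, and Csf1r, the receptor for their growth factor Csf1, by 0.69, from 9.22, 9.20 and 9.21 to 9.71, 10.01 and 9.99. These receptors were higher in every tumour library. Lyve1, a hyaluronan receptor of perivascular macrophages, went the other way, from 2.22, 1.06 and 2.10 to near 0 reads in tumour, at least 103-fold lower. Cd209a, a lectin shared with dendritic cells, fell from 3.33, 3.04 and 2.81 to -1.32, -4.78 and -7.39 (-7.56, SE 1.08, adjusted p = 3.96e-05). Cd209a is itself a called member of the dendritic cell marker list, so the fall of that list's sum is in part its own. The part of dendritic cells in its fall was not tested.

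Monocyte genes and genes of alternative activation fell in part, both with low levels behind many calls. Of 27 monocyte genes 10 fell and 5 rose, with a median of -0.90, and leaving out single libraries left 6 to 10 falls (6 without LP III or LP V) and 3 to 5 rises (3 without LP V or tumour I). Ccr2, the chemokine receptor by which monocytes leave the marrow, did not pass the test, at 3.83, 3.70 and 3.96 in LP and 2.66, 2.93 and 3.47 in tumour (-0.81, SE 0.36, adjusted p = 0.131 by limma). Ly6c2, a surface antigen of young monocytes, was below 0 in every library and fell (-4.32, adjusted p = 0.0011). Of 25 alternative activation genes 6 fell and 1 rose, and 3 falls were left without LP III, LP IV, LP V or tumour VII. Beside Retnla, Il4ra, the shared receptor chain for interleukins 4 and 13, fell from 9.0, 8.81 and 8.98 to 6.84, 7.02 and 7.04 (-1.96, SE 0.14, adjusted p = 1.75e-08), while its partner Il13ra1 rose by 0.99. The chains of 1 receptor thus moved apart, the abundant one being lower in each tumour library.

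Few genes of antigen presentation passed the test. Of 16 MHC class II genes 2 rose (1 without LP V) and 0 fell, and of 19 MHC class I genes 1 rose (0 with any of 4 single libraries left out: LP III, LP IV, LP V and tumour I) and 2 fell. Cd83, which keeps MHC class II on the surface, lay at 8.95, 8.86 and 9.27 in LP and at 10.53, 9.77 and 10.26 in tumour (1.16, SE 0.25, adjusted p = 0.00243 by limma). Class II itself was a sort criterion, so its levels are bound to the gate. H2-D1, a classical class I chain, lay at 10.70, 10.76 and 10.81 in LP and at 10.16, 9.95 and 9.68 in tumour (-0.82, SE 0.18, adjusted p = 0.00217), and H2-Q7, a non-classical one whose reads overlap near-identical copies, fell by 1.71. The 16 other class I genes did not pass the test, and the median of the list was 0.13.

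Of 27 checkpoint and costimulatory ligands tested, 6 fell and 4 rose (median -0.34), a balance like that over all genes. Cd40, through which helper T cells license macrophages, lay at 5.92, 6.19 and 6.22 in LP and at 4.15, 3.75 and 3.47 in tumour, 4.99-fold lower (-2.32, SE 0.35, adjusted p = 8.02e-05 by limma). Cd86, the costimulatory ligand of CD28, lay at 8.17, 8.16 and 8.23 against 7.37, 7.23 and 7.05 (-0.98, SE 0.15, adjusted p = 8.65e-05). Entpd1 (CD39), which breaks down extracellular ATP, fell by 0.93, whereas Nt5e (CD73), the next enzyme of that route, which makes adenosine, lay at -1.02, -1.40 and -0.73 in LP and 2.3, 2.98 and 2.84 in tumour, 13.5-fold higher (3.76, SE 0.29, adjusted p = 3.20e-08). Consecutive enzymes of adenosine production thus moved in opposite directions, and Entpd1 had the higher log2 RPKM in tumour, at 6.25 to 6.61. Sirpa, the receptor for the signal CD47 by which cells escape uptake, rose by 1.12, and Siglece, an inhibitory lectin, by 0.91.

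Matrix proteases split evenly, while matrix proteins fell. Of 29 proteases and inhibitors 7 rose and 7 fell (4 fell without tumour VII), and of 21 matrix and adhesion glycoproteins 12 (57.1%) fell and 3 rose, with medians of -0.34 and -1.82. Leaving out 1 library left 9 to 12 matrix falls and 1 to 3 rises (1 without LP IV, LP V or tumour V). Beside Mmp9, Mmp2, the other gelatinase, lay at 5.06, 4.70 and 4.82 in LP and 6.73, 6.88 and 6.77 in tumour (1.93, SE 0.49, adjusted p = 0.00733 by limma), and Plau, the urokinase that activates plasmin, at 3.06, 3.86 and 3.78 against 5.64, 5.55 and 5.47 (1.98, SE 0.33, adjusted p = 0.000228). Mmp7, matrilysin, an enzyme of epithelial cells too, had 0 reads in LP and 1.59, -1.44 and -1.23 in tumour, at least 17.6-fold higher, with tumour I highest as it was for the epithelial marker sum. Adamts4, an aggrecanase, fell from 1.54, 0.37 and 1.05 to -9.08, -4.36 and -9.08 (adjusted p = 0.000175) and Serpinb2, an inhibitor of urokinase, from 2.3, 1.80 and 1.78 to -8.05, -1.44 and -8.05 (adjusted p = 0.00044), where the lowest tumour values stand for 0 reads.

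The matrix proteins that fell were low in LP too. Has1, a hyaluronan synthase, lay at 2.54, 1.51 and 1.82 and Fbln1, fibulin-1, at 0.83, 0.40 and 0.19 in LP, both with 0 reads in all tumour libraries, which makes them at least 90.9-fold and 66.0-fold lower. Col3a1, type III collagen, fell from 1.35, 1.24 and -0.06 to -10.11, -10.11 and -2.98 (-8.57, SE 1.59, adjusted p = 0.000624 by limma), and Sparc, a collagen-binding glycoprotein, from 1.76, 0.90 and 0.99 to -3.89, -2.39 and -3.00 (-4.31, SE 0.92, adjusted p = 0.00208). Fibroblasts are the usual source of these proteins, and their marker sums without Pdpn were 15.6 to 33.2 RPKM in LP and 5.90 to 7.45 in tumour. Col3a1 is itself in those sums, with other collagens, so they are not a separate measure. The part of such cells in the matrix falls was not tested.

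Of 27 growth factors tested, 9 fell (5 without tumour VII), 2 rose and 16 did not pass the test (median -0.19). Csf1, the growth factor of macrophages themselves, lay at 1.51, 0.88 and 0.98 in LP and at 3.91, 3.57 and 2.42 in tumour, 4.52-fold higher (2.18, SE 0.41, adjusted p = 0.000747 by limma). Hgf, hepatocyte growth factor, which drives epithelial cells, lay at 1.63, 1.18 and 1.53 against 2.39, 3.56 and 3.23 (1.62, SE 0.35, adjusted p = 0.00234). Csf1 thus rose with its receptor Csf1r in the same libraries. Csf3, the neutrophil growth factor, fell from 1.58, 1.24 and 1.62 to 0.51, -2.12 and -7.32 (adjusted p = 0.00753), Angptl2, an angiopoietin-like protein, fell by 3.29 and Edn1, the vasoconstrictor endothelin-1, by 2.37.

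Integrins and other adhesion receptors fell in 9 and rose in 6 of 30 tested, with 3 rises left without LP IV, LP V or tumour V. Cd44, the hyaluronan receptor, lay at 8.48, 8.44 and 8.53 in LP and at 6.75, 6.85 and 5.99 in tumour (-1.95, SE 0.20, adjusted p = 7.74e-07 by limma), and Alcam, a T cell adhesion molecule, fell by 1.84. Itga4, the alpha-4 chain that pairs with beta-7, went up from 1.80, 1.43 and 1.79 to 2.81, 2.77 and 3.13 (1.23, SE 0.29, adjusted p = 0.00505), opposite to its partner Itgb7. Jaml, a junctional adhesion molecule of leukocytes, rose by 2.23.

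Uptake and lysosomal genes moved both ways. Efferocytosis and scavenger receptors rose in 6 and fell in 3 of 30 tested (1 fell without LP III, LP IV, LP V or tumour VII), led by Mfge8, Mertk and Stab1, and Cd300lf, a phosphatidylserine receptor, rose by 1.43. Lipid-associated macrophage genes fell in 6 and rose in 3 of 32, with 3 falls left without LP IV or LP V and 1 rise without LP III or tumour VII. Gpnmb, a glycoprotein of lipid-laden macrophages, lay at 6.53, 6.61 and 6.81 in LP and at 4.67, 3.36 and 3.59 in tumour, 6.87-fold lower (-2.78, SE 0.37, adjusted p = 1.65e-05 by limma). Of 57 lysosomal genes 12 rose and 8 fell (7 and 5 without tumour VII, and 5 fell without LP III or LP V). Gusb and Man2b1, a glucuronidase and a mannosidase, rose by 1.34 and 1.04. Atp6v1b2, a proton pump subunit, lay at 6.91, 7.0 and 6.96 against 5.95, 6.09 and 6.21 (-0.88, SE 0.13, adjusted p = 4.81e-05) and Atp6v1a, another, fell by 0.75. Gla, an alpha-galactosidase, fell by 1.05.

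Lectins and Fc receptors rose in 3 (1 without LP III) and fell in 4 of 25 tested, and complement genes fell in 3 and rose in 0 of 24. Clec5a, a C-type lectin that signals through Dap12, lay at 3.42, 3.55 and 3.27 in LP and at 4.93, 5.31 and 5.21 in tumour (1.73, SE 0.22, adjusted p = 8.20e-06 by limma). Clec4e (Mincle), a receptor for mycobacterial glycolipid, lay at 6.22, 6.20 and 6.28 against 4.78, 4.74 and 3.67 (-1.84, SE 0.22, adjusted p = 4.92e-06), and its neighbour and partner Clec4d fell by 1.32. Clec12a, an inhibitory lectin, fell by 1.76, and Cd93, the C1q-related surface protein, by 0.88. The S100 and annexin list fell in 8 (5 without LP IV or tumour I) and rose in 4 of 18, with a median of -0.92, or -0.15 with genes at the floor set to their bound. S100a10 and Anxa2, which form 1 complex, both fell, from 4.78, 5.07 and 5.17 to 1.87, 1.36 and 1.91 (-3.29, SE 0.38, adjusted p = 3.65e-06) and from 7.55, 7.61 and 7.80 to 4.54, 4.91 and 3.72 (-3.27, SE 0.23, adjusted p = 1.35e-08). Partners in a complex thus fell by near-equal amounts, and S100a6 fell by 2.71.

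Transcription factors of myeloid cells rose in 11 (6 without tumour I) and fell in 12 of 63 tested, and immediate-early genes rose in 9 and fell in 3 (5 without tumour I) of 37. Atf3, a stress-induced repressor, lay at 6.97, 7.30 and 6.89 in LP and at 9.61, 9.13 and 9.80 in tumour, 5.50-fold higher (2.46, SE 0.24, adjusted p = 5.84e-07 by limma). Nr4a1, a nuclear receptor that cell activation induces, lay at 5.44, 5.41 and 5.92 against 8.34, 7.44 and 8.22 (2.41, SE 0.34, adjusted p = 3.27e-05), and Btg2, an antiproliferative early gene, rose by 2.23. Fosl1, an AP-1 subunit, went down from 4.24, 4.55 and 3.97 to 1.47, 2.18 and -1.09 (-3.40, SE 0.55, adjusted p = 0.000155). Early genes respond to dissociation, which lasted longer for LP, and its part in these values was not tested. Among the falls, Stat3, which carries cytokine signals, lay at 6.38, 6.25 and 6.36 against 5.09, 4.90 and 4.85 (-1.38, SE 0.16, adjusted p = 2.51e-06), and Nfkb1, an NF-kappaB subunit, at 5.67, 5.69 and 5.89 against 4.82, 4.39 and 4.06 (-1.33, SE 0.18, adjusted p = 2.52e-05), while Ahr, the receptor for dietary and microbial indoles, fell by 1.55 and Zeb1 by 2.97. Per1 and Per2, repressors of the circadian clock, rose by 2.15 and 1.54 among 4 rises and 1 fall of 16 clock genes, and the hour of collection is not given in the sources used here.

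Of 31 oxidase and antioxidant genes 9 (29.0%) fell and 4 rose (2 without LP III or tumour I), with a median of -0.21. Nqo1, a quinone reductase, lay at 2.23, 3.11 and 2.79 in LP and at -2.06, -0.54 and -1.88 in tumour, 18.4-fold lower (-4.20, SE 0.37, adjusted p = 1.40e-07 by limma). Txnrd1, thioredoxin reductase, lay at 8.17, 8.24 and 8.15 against 6.11, 6.37 and 5.07 (-2.34, SE 0.31, adjusted p = 1.71e-05), Gclm, of the enzyme that starts glutathione synthesis, fell by 2.58 and Srxn1, sulfiredoxin, by 1.81. Nfe2l2, which encodes Nrf2, lay at 6.36, 6.49 and 6.70 in LP and at 7.76, 7.44 and 7.89 in tumour (1.18, SE 0.16, adjusted p = 2.53e-05), and Ncf1, a cytosolic subunit of the NADPH oxidase, rose by 1.78. The antioxidant response element to which Nrf2 binds was searched as TGACNNNGC on both strands, and 2 promoters of fallen genes that hold it are shown, with the motif or its reverse complement in capitals. They span chr3:122245307-122245556 for Gclm and chr10:82858956-82859205 for Txnrd1, 1 of 3 RefSeq promoters of that gene, both on the plus strand of GRCm38.p6.
Gclm: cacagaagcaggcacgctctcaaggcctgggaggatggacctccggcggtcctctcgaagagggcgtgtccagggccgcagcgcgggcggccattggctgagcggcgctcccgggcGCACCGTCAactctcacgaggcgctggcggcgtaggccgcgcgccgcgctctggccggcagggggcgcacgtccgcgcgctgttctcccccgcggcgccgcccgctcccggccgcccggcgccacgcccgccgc
Txnrd1: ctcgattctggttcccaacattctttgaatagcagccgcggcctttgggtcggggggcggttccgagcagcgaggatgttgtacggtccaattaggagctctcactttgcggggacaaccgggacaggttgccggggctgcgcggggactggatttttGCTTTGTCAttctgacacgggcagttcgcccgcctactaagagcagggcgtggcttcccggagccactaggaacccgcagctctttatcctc
Of the 6 fallen list members with a promoter in the table, a total of 3 held the element, of the 4 that rose 1 did, and of 13 that did not pass the test 2 did. The element stood in 10.2% of all promoters. Counted by gene, over any promoter, it stood in 13.9% of genes tested, 12.9% of those that rose and 15.4% of those that fell.

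Genes of protein synthesis, respiration and sterol synthesis tended upwards. Of 36 genes of cholesterol and fatty acid synthesis 7 (19.4%) rose and 1 fell (2 without tumour I), with a median of 0.73. Mvd, of the mevalonate pathway, lay at 2.78, 2.52 and 2.82 in LP and at 4.66, 4.19 and 4.22 in tumour (1.65, SE 0.21, adjusted p = 1.07e-05 by limma), and its pathway mates Fdps and Fdft1 rose by 1.61 and 1.44. Stard4, a sterol carrier, rose by 2.38. Of 78 cytosolic ribosomal protein genes 21 rose and 0 fell, with a median of 0.69, and of 61 respiratory chain subunits 16 rose and 0 fell, with a median of 0.44. Rpl32, of the large ribosomal subunit, lay at 4.48, 4.56 and 4.60 in LP and at 5.68, 5.23 and 6.92 in tumour (1.39, SE 0.30, adjusted p = 0.00255), with tumour VII highest, and Ndufa2, of respiratory complex I, at 2.38, 2.71 and 2.32 against 3.77, 3.22 and 4.89 (1.49, SE 0.33, adjusted p = 0.00255). The counts of both lists hung on single libraries. Ribosomal rises numbered 5 without tumour VII, 6 without LP III, 11 without LP IV or LP V and 32 without tumour V. Respiratory rises numbered 4 without tumour VII, 5 without LP III or tumour I, 6 without LP IV, and 10 without LP V. With the donor number as a fixed block 0 ribosomal genes and 1 respiratory gene rose. That block joins LP V and tumour V, which are different mice. Only 1 respiratory gene rose in a fit of the libraries compared alone. The medians were positive under every alternative, at 0.32 to 0.93 for ribosomal and 0.24 to 0.66 for respiratory genes.

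Stress and survival genes moved in both directions. Of 39 genes of the unfolded protein and Atf4 responses 8 fell (5 without LP V or tumour VII) and 2 rose, and of 22 heat shock genes 5 fell (2 or 3 with any of the 6 libraries left out) and 2 rose (1 without LP III or tumour VII). Herpud1, which clears misfolded proteins from the endoplasmic reticulum, lay at 5.97, 5.97 and 6.07 in LP and at 7.99, 7.34 and 7.76 in tumour (1.69, SE 0.25, adjusted p = 6.49e-05 by limma), and Ddit3, the stress factor CHOP, rose by 1.12. Asns and Mthfd2, enzymes of amino acid and folate metabolism that Atf4 drives, fell by 4.75 and 1.18. Asns was low, at 0.32, 1.43 and 0.44 in LP and -8.27 (0 reads), -1.32 and -2.48 in tumour. Its call was lost in 2 of 19 alternatives (adjusted p up to 0.135 by limma). Hsp90aa1, an inducible chaperone, lay at 7.14, 7.26 and 7.36 against 6.18, 5.82 and 6.18 (-1.19, SE 0.31, adjusted p = 0.0094). Of 29 survival and death genes 9 fell and 4 rose (2 without LP III, tumour I or tumour VII). Fas, a death receptor, lay at 4.59, 4.43 and 4.73 in LP and at 2.18, 2.32 and 0.65 in tumour, 7.28-fold lower (-2.86, SE 0.31, adjusted p = 1.32e-06), Bcl2l11, the death promoter Bim, fell by 1.31 and Mdm2, which removes p53, by 1.42. Bad and Pmaip1 (Noxa), death promoters as well, rose by 1.23 and 1.17, so members of like function did not share a direction.

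The remaining metabolic lists each held rises and falls. With all libraries in the fit, the share that rose lay above the 8.01% of all genes in each list. The share that fell lay above the 11.5% of all genes only for prostaglandin and leukotriene genes. Of 33 hypoxia-responsive genes outside glycolysis 5 rose and 3 fell, and Bnip3, a mitophagy receptor, lay at 2.62, 2.23 and 1.99 in LP and at 4.05, 4.35 and 4.29 in tumour (1.96, SE 0.20, adjusted p = 9.78e-07 by limma). Ndrg1, another gene that low oxygen induces, went the other way, from 5.43, 5.52 and 5.38 to 1.46, 1.42 and -0.46, 24.8-fold lower (-4.63, SE 0.39, adjusted p = 7.93e-08), and Egln2, an oxygen sensor, fell by 1.47. Among 24 prostaglandin and leukotriene genes 5 rose (3 without tumour VII) and 4 fell. Ptgs1, the constitutive cyclooxygenase, lay at 5.78, 5.49 and 5.69 against 7.20, 7.17 and 7.11 (1.5, SE 0.21, adjusted p = 2.39e-05), the inducible Ptgs2 rose by 0.94, and Ptgir, the prostacyclin receptor, fell by 5.32. Of 25 iron genes 3 rose and 2 fell. Slc40a1, the iron exporter ferroportin, lay at 2.73, 2.94 and 2.77 in LP and at 4.33, 4.83 and 5.05 in tumour (1.93, SE 0.38, adjusted p = 0.00101), while the importers Slc11a2 and Slc11a1 fell by 1.53 and 0.98. Export and import genes for iron thus moved in opposite directions. Of 18 arginine and polyamine genes 4 rose and 1 fell (2 without tumour I), among them Sat1, which acetylates polyamines, higher by 1.03, Gatm, which uses arginine for creatine, higher by 1.36, and the arginine transporter Slc7a2, higher by 1.79.

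**Figure D4:**
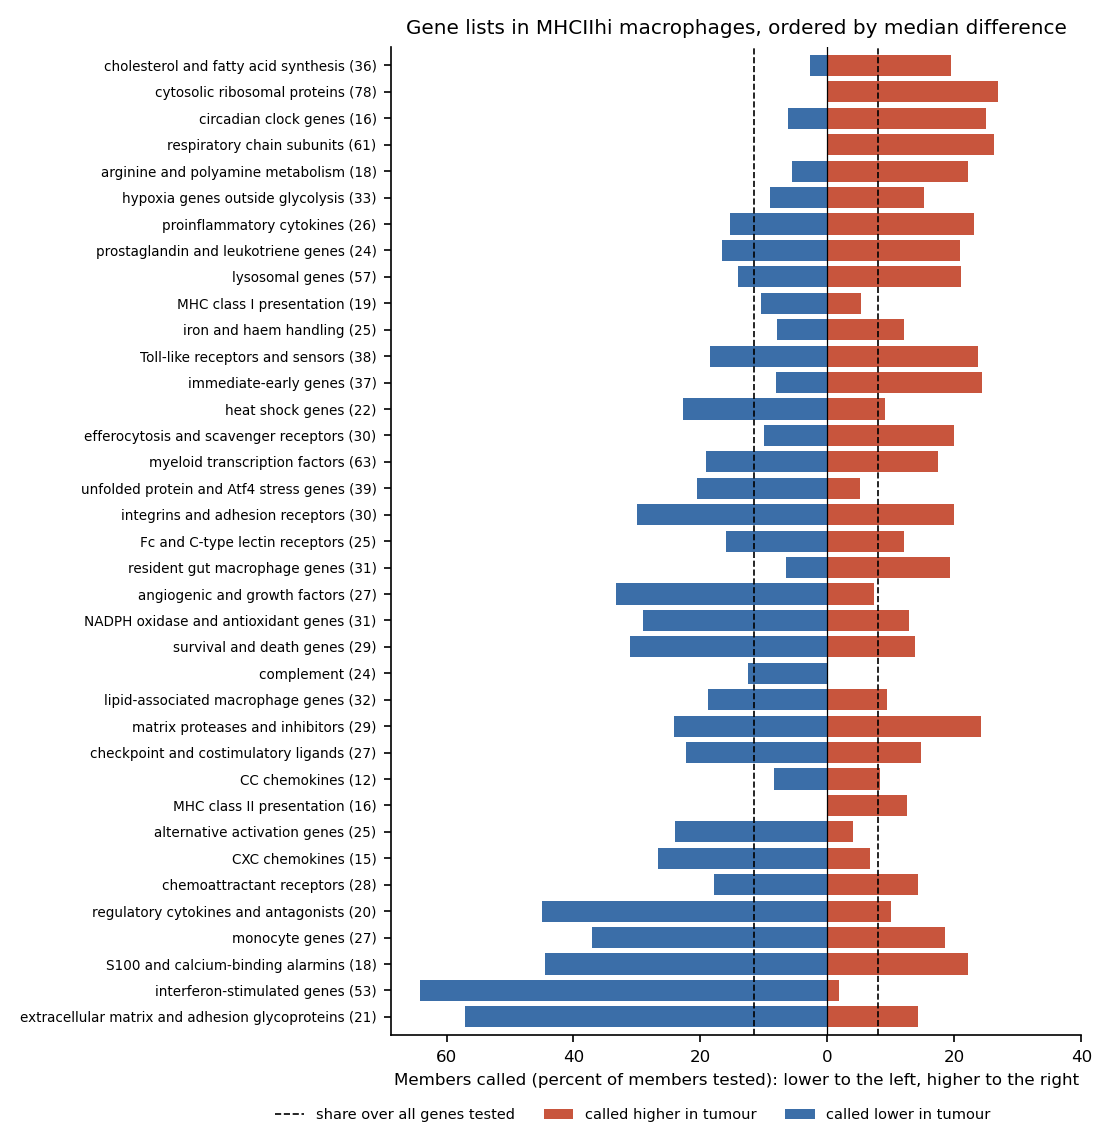
Share of each gene list (percent of the members tested, number in brackets) called lower in tumour (blue, to the left) and higher (red, to the right), with lists in the order of their median difference and dashed lines at the shares over all genes tested (11.5% and 8.01%). Interferon-stimulated genes (64.2%) and matrix glycoproteins (57.1%) reach furthest to the left, and ribosomal and respiratory lists have no member called lower.

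To see which changes differed from those of neighbouring cells, the tumour effect in MHCIIhi macrophages was set against that in MHCIIlow macrophages by an interaction term over the same kind of LP and tumour libraries. The difference of effects passed limma's threshold in 188 of 12878 genes (1.46%), with 42 (0.326%) more positive in MHCIIhi and 146 (1.13%) more negative. Of the 188, 100 were called in MHCIIhi and 138 in MHCIIlow, and the effects had the same sign in 84. In 63 of them the gene rose in MHCIIlow without passing the test in MHCIIhi, and in 57 it fell in MHCIIhi without falling in MHCIIlow. With single libraries left out the count was 80 to 311: 80 without tumour MHCIIlow V, 83 to 98 without LP MHCIIhi III, IV or V or tumour MHCIIhi VII, and 311 without LP MHCIIlow III. None of the 53 interferon-stimulated genes passed this test.

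Dcstamp, which fuses macrophages into giant cells, lay at 5.33, 4.87 and 4.93 in LP and at 6.35, 7.05 and 6.34 in tumour MHCIIhi libraries (1.54, adjusted p = 0.00695 by limma). In MHCIIlow cells it rose by 6.38, from a mean of 0.45 in LP to 6.83 in tumour, a difference of -4.84 (adjusted p = 0.00015). Inhba, a chain of activin A, lay at 4.03, 4.25 and 3.72 in LP and at 2.70, 2.03 and 0.86 in tumour MHCIIhi libraries (-2.14, adjusted p = 0.011, or 0.0771 without tumour VII) and rose by 1.82 in MHCIIlow cells, a difference of -3.96 (adjusted p = 0.017). Opposite directions in the subsets were thus measured for Inhba. Mmp12, macrophage elastase, did not pass the test in MHCIIhi cells (1.46, adjusted p = 0.0648), with means of 5.61 in LP and 7.07 in tumour. In MHCIIlow it rose by 5.26, from a mean of 3.21 to 8.47. Pdcd1lg2, the checkpoint ligand PD-L2, stood at -1.01 in MHCIIhi (adjusted p = 0.164), with means of 3.50 in LP and 2.48 in tumour. In MHCIIlow it rose by 2.77, from a mean of -1.27 to 1.51. Itgb7 fell by 5.78 in MHCIIhi and by 1.87 in MHCIIlow cells, a difference of -3.91 (adjusted p = 0.018). Among genes with the more positive effect in MHCIIhi cells, Lyl1, a blood cell factor, rose by 1.60 with a difference of 2.27, Nr4a1 by 2.41 with one of 1.93, Wfdc17, a secreted antiprotease-like protein, by 1.41 with one of 1.77, and the AP-1 gene Fosb by 1.06 with one of 1.59. Itgax, the sort gene for CD11c, stood at 0.53 in MHCIIhi (adjusted p = 0.379), with means of 6.64 in LP and 7.18 in tumour. In MHCIIlow it rose by 3.37, from a mean of 3.20 to 6.58, a difference of -2.84 (adjusted p = 0.011).

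**Figure D5:**
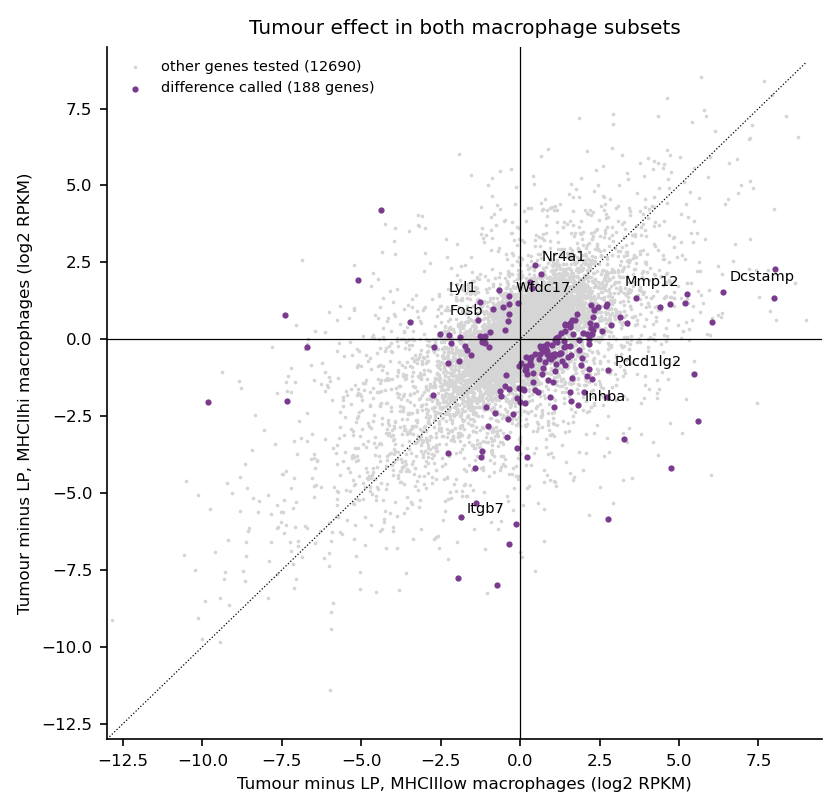
Tumour minus LP difference (log2 RPKM) in MHCIIhi macrophages (vertical) against MHCIIlow macrophages (horizontal), 1 point per gene tested, with the 188 genes whose difference of effects was called in purple and the dotted line at equal effects. Most purple points lie below the line, 146 against 42. Dcstamp and Mmp12 lie far to the right, at 6.38 and 5.26, and Pdcd1lg2 and Inhba less so, at 2.77 and 1.82.

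Against monocytes, the difference of tumour effects was called in 742 genes (5.76%), with 212 (1.65%) more positive and 530 (4.12%) more negative in MHCIIhi macrophages. Mfge8 rose by 2.74 in macrophages and stood at -1.0 in monocytes (adjusted p = 0.26 by limma), a difference of 3.75 (adjusted p = 0.0031). Hpgds, prostaglandin D synthase, did not pass the test in MHCIIhi cells, at 6.18, 6.09 and 6.13 in LP and 5.74, 5.91 and 6.02 in tumour. It fell by 4.44 in monocytes, where it was low, from a mean of 1.53 to -2.91, a difference of 4.20 (adjusted p = 0.0001). Cp, the ferroxidase ceruloplasmin, lay at 1.47, 1.42 and 2.02 in LP and 3.47, 3.50 and 4.32 in tumour macrophages. The groups were apart, but the rise was not called (2.13, SE 1.37, adjusted p = 0.325 by limma). That SE is shared over all 8 groups, and Cp varied most in tumour monocytes, with a standard deviation of 2.98. In monocytes Cp fell by 5.82, from a mean of -2.53 to -8.35, a difference of 7.95 (adjusted p = 0.017) that rests on low levels. Adamdec1, a gut macrophage protease, lay at 5.65, 5.50 and 5.41 in LP and 8.17, 7.94 and 6.87 in tumour macrophages. It fell by 2.79 in monocytes, where it was low, from a mean of 0.40 to -2.39, a difference of 4.93 (adjusted p = 0.0053). Its own rise in macrophages (2.14, adjusted p = 0.0422) had a p of 0.0837 to 0.133 with LP III, LP IV, LP V, tumour I or tumour V left out. Retnla had 0 reads in the monocytes of LP and of tumour, so no fall could be measured there and its difference of effects repeats the fall in macrophages. Falls that were more negative in macrophages included Sphk1, with 0.41 in monocytes and a difference of -6.96 (adjusted p = 0.0021), Sgms2, with 0.33 and -5.03 (adjusted p = 1.69e-06), Itgb7, with -0.32 and -5.46 (adjusted p = 0.00029), and Ndrg1, with 0.02 and -4.65 (adjusted p = 4.13e-05). Of the interferon-stimulated genes 11 of 53 passed this test, Ifit1 not among them, with -5.19 in macrophages and -3.91 in monocytes.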

How the data were processed

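The 6 MHCIIhi libraries are full-length cDNA libraries from sorted cells (a modified SMART-Seq v2 protocol, paired-end reads). Per the submitters' processing notes, the tools named are STAR 2.3, featureCounts 1.5 and edgeR, with GRCm38 and mm10 as builds. The authors deposited 1 table of log2 RPKM values of 17301 genes in 24 libraries, and no unused columns were left. Each value came back as a whole number of reads (100% of 415224 values within 0.001 reads, with a prior of 0.25 reads), which gave the depths of 12.8 to 41.7 M reads and showed where a gene had 0 reads. Full-length libraries without molecular tags count copies, so depth covers counting error alone.

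The deposited log2 values were fitted with limma 3.58.1 (R 4.3.3, empirical Bayes with trend), 1 mean per group over all 24 libraries, for the 12878 genes with a mean of at least 1 RPKM in at least 1 of the 8 groups, with Benjamini-Hochberg adjustment and a threshold of 0.05. The difference of tumour effects between populations was an interaction contrast of the same fit. On the recovered reads, limma voom called 1832 genes higher and 1965 lower, against 1031 and 1480 here. Replicates are separate donor numbers, each a pool of mice, so p-values measure the spread between these pools, shared over all 8 groups. The fit was tested on simulated data.

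Genes were named by a rule: the 15 greatest rises and falls (no overlap between groups, a mean of at least 10 RPKM in the higher group, predicted genes, receptor segments and pseudogenes left out), up to 5 called rises and falls per gene list and members that the study names, 5 in each direction per interaction, the sort genes, and the 2 most abundant members of each marker list, with other genes marked where they were picked after their values were seen. Members and lists were chosen with earlier results of these data known. Lists are described by counts and medians, with no set test. Donor numbers are shared between cell types of a tissue, but number V of LP and of tumour are different mice, and the MHCIIhi groups share no other number. Deviations from the group means of same-numbered libraries correlated at a median of 0.017 over 29 pairs (-0.066 to 0.25). Promoters are RefSeq's, 250 bases before the start site (GRCm38.p6). Alternatives were other pseudocounts, filters, scalings, sample sets, weights, donor blocks, voom, and leaving out each library. A few genes that the rule names are not reported here.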

Additional observations from a re-analysis of the deposited data

Results flagged for a closer look

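In 188 genes the tumour effect in MHCIIhi macrophages differed from that in MHCIIlow macrophages by limma's interaction test, and in 742 genes it differed from that in monocytes. The LP MHCIIlow libraries held 12.8 to 31.3 M reads and the LP MHCIIhi ones 27.7 to 41.7 M, and what part depth had in the first count was not tested.

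Of 179 genes named in the text, 17 were among the 188. The effect was more positive in MHCIIhi for Lyl1 (2.27, adjusted p = 0.0184 by limma), Nr4a1 (1.93, adjusted p = 0.0457), Wfdc17 (1.77, adjusted p = 0.0393), Fosb (1.59, adjusted p = 0.0302) and Cd83 (1.51, adjusted p = 0.039). It was more negative in MHCIIhi for Dcstamp (-4.84, adjusted p = 0.00015), Ltb4r1 (-4.04, adjusted p = 0.000387), Inhba (-3.96, adjusted p = 0.0167), Ptgir (-3.94, adjusted p = 0.0117), Itgb7 (-3.91, adjusted p = 0.0182), Mmp12 (-3.80, adjusted p = 0.0153), Pdcd1lg2 (-3.79, adjusted p = 0.00931), Itgax (-2.84, adjusted p = 0.0113), Nqo1 (-2.78, adjusted p = 0.0113), Il7r (-2.78, adjusted p = 0.00337), Fpr2 (-1.36, adjusted p = 0.0302) and Clec4e (-1.25, adjusted p = 0.0464).

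Against monocytes, 74 of the 179 named genes were among the 742. The differences named by rule were those of Cp (7.95, adjusted p = 0.0168 by limma), Bhlhe41 (5.6, adjusted p = 0.00862), Adamdec1 (4.93, adjusted p = 0.00533), Hpgds (4.20, adjusted p = 0.000101) and Mfge8 (3.75, adjusted p = 0.0031) on the positive side. For Cp, Bhlhe41, Adamdec1 and Hpgds the mean in tumour monocytes was low, at -8.35, -4.66, -2.39 and -2.91. On the negative side they were those of Sphk1 (-6.96, adjusted p = 0.00206), Itgb7 (-5.46, adjusted p = 0.00029), Sgms2 (-5.03, adjusted p = 1.69e-06) and Ndrg1 (-4.65, adjusted p = 4.13e-05), with Retnla at a fitted -9.75 (adjusted p = 6.13e-05) that depends on the prior, since tumour macrophages and the monocytes of LP and tumour all had 0 reads, so that it repeats the fall in macrophages.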

How the results depend on the processing

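Against 1031 rises and 1480 falls, 1655 genes rose with log2(RPKM + 1), 1743 with array weights and 1832 with voom, and the falls stayed within 1.5 times in these. Higher genes were 41.1% of all calls, and 36.1% to 49.8% under other settings, with 36.1% after median centring. With the donor number as a fixed replicate block 634 rose and 985 fell, 60.1% of the 2511 calls being kept. That block treats LP and tumour libraries of the same number as the same donor, though they are different mice. A random block, set within each tissue, gave 1033 and 1485. Under the fixed block 0 ribosomal genes rose against 21, 1 respiratory gene rose against 16, and 7 matrix glycoprotein genes fell against 12. Leaving out 1 library gave 756 to 866 rises and 1102 to 1413 falls.

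The difference from MHCIIlow was called in 473 genes with log2(RPKM + 1), 338 with quantile normalization, 433 with array weights, 539 with voom and 87 in a fit of the 12 macrophage libraries, against 188, and in 80 to 311 with 1 library left out. The count was 98, 83 and 91 without LP MHCIIhi III, IV and V, 91 without tumour MHCIIhi VII, 80 without tumour MHCIIlow V and 311 without LP MHCIIlow III. Those 12 are also the libraries compared, so that alternative gave no further value. The difference from monocytes was called in 1152, 1329 and 1134 genes with log2(RPKM + 1), array weights and voom, against 742. Of 170 named genes called, 141 kept their call in each alternative and none changed direction. Signs of uncalled genes turned for Adgre1 (0.063 with quantile normalization) and H2-Ab1 (0.074 with the fixed block), and for Pecam1, which stood at -0.02 (0.054 with quantile normalization, 0.11 with array weights, 0.022 and 1.13 with the random and fixed block, -0.17 to 0.095 with 1 library left out). Depth limits genes listed at 0 reads to a bound.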
